A study of Mus musculus with 2 samples.

Results

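Levels of 10 heat shock genes were compared between cultured splenic B cells of Nedd4-/- and Nedd4+/+ genotype: the cytosolic chaperone genes Hspa8, Hspa1a, Hspa1b, Hsp90aa1, Hsp90ab1, Hsph1 and Dnajb1, the mitochondrial chaperonin genes Hspd1 and Hspe1, and Hsf1, which encodes the transcription factor of the heat shock response. They were taken by gene name from the 23288 genes listed, and each of the 10 had 1 line, for 1 RefSeq transcript. There was 1 library per genotype. Both came from mice reconstituted with fetal liver cells, on a mixed B6 and 129 background backcrossed to B6, and such hosts can keep blood cells of their own. Both cultures received LPS, a bacterial product that activates B cells, and IL4 for 72 hours, a stimulus for class switching to IgG1. Nedd4 encodes a ubiquitin ligase. The labels do not say how many mice or cultures stand behind each library.

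Heat shock chaperones bind unfolded segments of other proteins and release them in cycles driven by ATP. HSP40 proteins deliver clients to HSP70 proteins, nucleotide exchange factors such as the HSP110 protein Hsph1 reset the cycle, and HSP90 takes over near-native clients, among them many kinases. In mitochondria a chaperonin ring and its lid enclose imported proteins while they fold. Under proteotoxic stress HSF1 forms trimers and binds heat shock elements, arrays of inverted GAA units, in the promoters of these genes.

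The promoters are shown first because they separate the members by their exact match to that element. RefSeq promoter windows (build GRCm38.p6, 250 bases before to 50 bases after each start) were at hand for 6 of the 10 genes, Hspa1a, Hspa1b, Hspd1, Hspe1, Hsph1 and Dnajb1. The element was searched as 3 alternating exact units with 2 free bases between them, either GAA, TTC and GAA or TTC, GAA and TTC. These patterns are each other's reverse complement and so cover both strands. Arrays in which a unit has a changed base were not searched for and would be missed. The exact element was present in 3 of the 6 genes, Hspd1, Hspe1 and Hsph1. It was present in 0.662% of all 27025 genes with windows, and in 0.603% of all 32851 windows. Hspd1 and Hspe1 lie head to head on chromosome 1, and their match is the same stretch of DNA read from either side, at chr1:55088059-55088076, where 2 matches overlap. The match is in 1 of the 2 windows of Hspd1. The 250 bases before the start of Hspe1 (chr1:55087898-55088147, plus strand) carry the overlapping matches in capitals.
Hspe1: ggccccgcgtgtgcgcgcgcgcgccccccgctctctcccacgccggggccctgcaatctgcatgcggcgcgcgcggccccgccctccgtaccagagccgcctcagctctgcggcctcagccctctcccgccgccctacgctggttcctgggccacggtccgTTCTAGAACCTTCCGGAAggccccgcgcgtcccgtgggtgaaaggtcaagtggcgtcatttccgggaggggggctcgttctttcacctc

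In Hsph1 the match lies after the start, at position 16 or 37 counted from either of its RefSeq starts. The 30 bases around it (chr5:149636287-149636316, minus strand) carry the match in capitals.
Hsph1: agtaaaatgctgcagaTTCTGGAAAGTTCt

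Hspa1a and Hspa1b are tandem copies on chromosome 17. Their windows held no match of 3 exact units, which does not show that they lack arrays with changed units. Each held a form of 2 units, GAA and TTC with 2 free bases between them, shown in capitals. Its first base lies 104 bases before the start. Of all windows, 15.1% held a form of 2 units in either order; every match of 3 units contains such forms. The 250 bases before the starts of Hspa1a (chr17:34972157-34972406, minus strand) and Hspa1b (chr17:34959239-34959488, minus strand) differ at 3 bases.
Hspa1a: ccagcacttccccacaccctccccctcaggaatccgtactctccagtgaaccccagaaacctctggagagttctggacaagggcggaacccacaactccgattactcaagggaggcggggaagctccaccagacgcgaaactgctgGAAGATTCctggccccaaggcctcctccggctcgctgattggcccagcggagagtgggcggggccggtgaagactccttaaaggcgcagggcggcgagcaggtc
Hspa1b: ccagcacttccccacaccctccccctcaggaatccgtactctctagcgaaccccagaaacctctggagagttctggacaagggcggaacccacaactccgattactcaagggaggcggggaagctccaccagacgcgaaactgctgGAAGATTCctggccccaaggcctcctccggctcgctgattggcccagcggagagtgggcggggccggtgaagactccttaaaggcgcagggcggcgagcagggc

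Counted from 1 at the left end of the printed stretch, and with the Hspa1a base given first, the differences are C44T, T47C and T249G, so the copies are 98.8% identical over these bases. The windows of Dnajb1 held neither the 3-unit nor the 2-unit form. A GC box (GGGCGG, either strand) was found in all 6 genes and in 38.2% of all genes with windows. A CCAAT box (CCAAT, either strand) was found in 5 of the 6 genes and in 41.1% of all genes with windows. TATAAA (either strand) was found in 0 of the 6 genes and in 15.7% of all genes with windows. These are matches of letters and not measured binding.

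**Figure D1:**
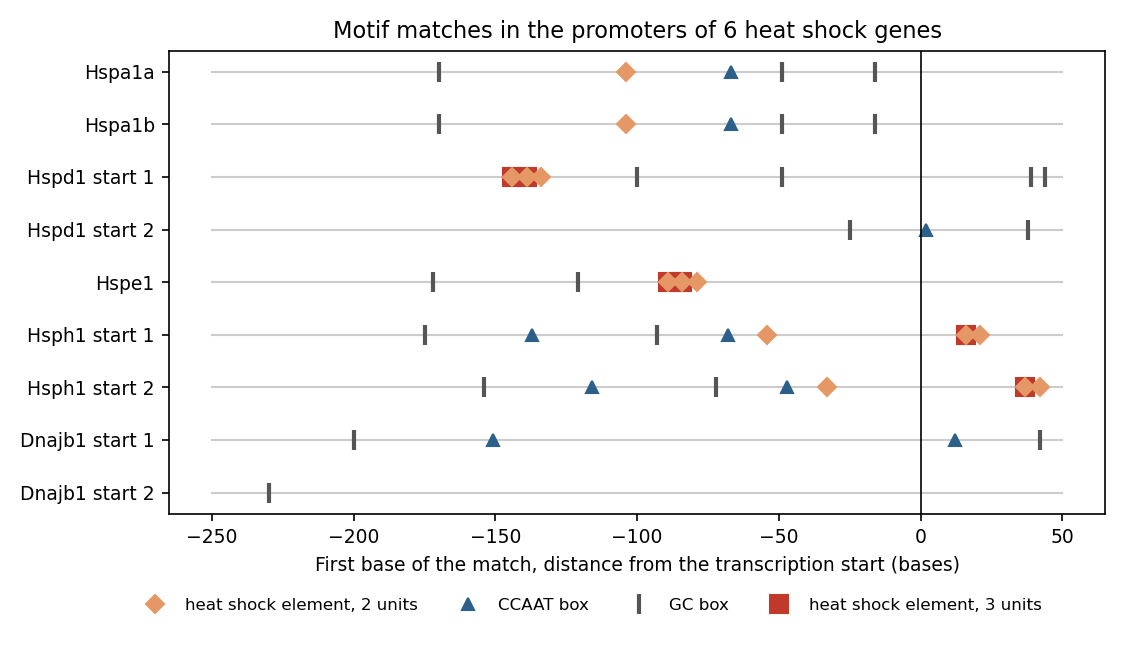
Positions of motif matches in the 9 RefSeq promoter windows of 6 heat shock genes; the horizontal axis is the distance of the first base of a match from the transcription start in bases, and each row is 1 window. Matches of 3 units (squares) sit upstream in Hspe1 and in 1 of the 2 windows of Hspd1, and downstream of the start in both windows of Hsph1.

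The libraries differed in ways that touch every value of the members. Levels are RPKM, that is, reads relative to transcript length and to the sequenced total. Read bases recovered from the levels came to 6.17 gigabases for Nedd4-/- and 8.40 gigabases for Nedd4+/+, in reads of 101 nt, and 24.4% of the Nedd4-/- bases and 32.6% of the Nedd4+/+ bases lay in transcripts of known length. Genes were compared where the mean of both libraries was at least 1 RPKM, which left 9405. Their median log2 ratio, Nedd4-/- over Nedd4+/+ with 1 RPKM added to both, was -0.31, and the central 90% ran from -0.74 to 0.06. Without the added 1 the median was -0.39, a fold of 0.764. The median level over all 23288 genes differed the other way, at 0.482 RPKM in the Nedd4-/- library and 0.339 RPKM in the Nedd4+/+ library. Nedd4 itself stood at 1.95 RPKM in Nedd4-/- cells and 7.59 RPKM in Nedd4+/+ cells. Xist, transcribed from the inactive X, measured 0.0958 RPKM in Nedd4-/- cells and 23.7 RPKM in Nedd4+/+ cells, and the Y-linked gene Ddx3y measured 10.6 RPKM in Nedd4-/- and 2.63 RPKM in Nedd4+/+. The Nedd4+/+ library thus held RNA of both kinds, and this difference and genotype cannot be told apart. Of the B cell markers 8 of 8 had a mean over 1 RPKM. There were 31 markers of T cells, natural killer cells, myeloid cells and stromal or endothelial cells. Of these 0 had a mean over 1 RPKM, and 0 were at exactly 0 in either library. Their levels summed to 10.1 RPKM in the Nedd4-/- library and 5.27 RPKM in the Nedd4+/+ library. Of the 31, 30 were higher in the Nedd4-/- library. At such low levels the median gene was higher there too, and the share of such genes that were is not given here. Erythroid markers summed to 4.64 RPKM in Nedd4-/- and 6.20 RPKM in Nedd4+/+. Plasmablast markers summed to 339 RPKM in the Nedd4-/- library and 627 RPKM in the Nedd4+/+ library, with 6 of 6 lower in the Nedd4-/- library. Most genes were lower there: a log2 ratio above 0 was found for 7.32% of the 9405 genes. The part of these differences in the values of the members was not tested. A single library per genotype gives no replicate check, and no p-value was computed. Intervals are exact 95% counting intervals of recovered read pairs and cover counting error only. Fewer cells of a type and less RNA per cell cannot be told apart in such bulk RNA.

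The cytosolic chaperones that cells make without stress were by far the most abundant members. Hsp90ab1, the constitutive HSP90, stood at 252 RPKM in the Nedd4-/- library (counting interval 248.8 to 255.9) and 383 RPKM in the Nedd4+/+ library (379 to 387). It ranked 57th among all genes in the Nedd4-/- library and 48th in the Nedd4+/+ library. Hspa8, the constitutive HSP70, stood at 159 RPKM (156 to 162) in the Nedd4-/- library and 207 RPKM (204 to 210) in the Nedd4+/+ library. Together these genes made up 77.0% of the summed RPKM of the 10 members in the Nedd4-/- library and 80.3% in the Nedd4+/+ library. Hsp90aa1, the stress-inducible HSP90, followed at 41.0 RPKM in Nedd4-/- and 51.5 RPKM in Nedd4+/+.

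The members formed a steep ladder that was almost the same in both libraries. Below Hsp90aa1 came the mitochondrial chaperonin, with Hspd1, the ring subunit, at 29.7 RPKM in the Nedd4-/- library and 37.0 RPKM in the Nedd4+/+ library, and Hspe1, the lid subunit, at 28.4 RPKM in Nedd4-/- and 29.6 RPKM in Nedd4+/+. Hsph1 stood at 10.05 RPKM in Nedd4-/- cells and 9.48 RPKM in Nedd4+/+ cells. Dnajb1, an HSP40 that activates HSP70, stood at 7.67 RPKM in Nedd4-/- and 10.3 RPKM in Nedd4+/+. Hsf1 stood at 4.37 RPKM in Nedd4-/- cells and 5.46 RPKM in Nedd4+/+ cells. The only change of order was between Hsph1 and Dnajb1. Hsph1 was above Dnajb1 in the Nedd4-/- library, with counting intervals of 9.48 to 10.6 and 7.11 to 8.26 RPKM, whereas in the Nedd4+/+ library the intervals of Hsph1 (9.01 to 9.98) and Dnajb1 (9.73 to 10.9) overlapped. Neighbours in the order also had overlapping intervals in the Nedd4-/- library for Hspd1 with Hspe1 and for Hspa1b with Hspa1a.

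**Figure D2:**
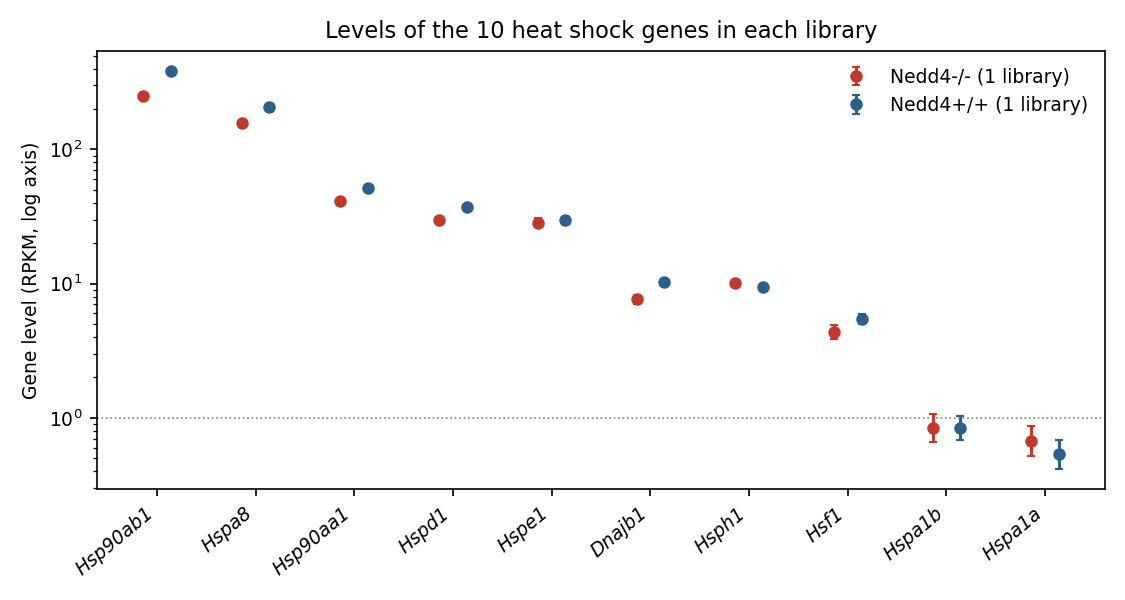
Level of each member in RPKM (log axis) in the Nedd4-/- and Nedd4+/+ library; bars are exact 95% counting intervals, and the dotted line is 1 RPKM. Levels run from 252 RPKM (Nedd4-/-) and 383 RPKM (Nedd4+/+) for Hsp90ab1 to below 1 RPKM for Hspa1a and Hspa1b, and Hsph1 alone of the 8 genes above the line is higher in the Nedd4-/- library.

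Hspa1a and Hspa1b, the HSP70 genes most strongly induced by heat, were among the low genes of both libraries, a little above the median gene. Hspa1a had 0.678 RPKM in the Nedd4-/- library (0.519 to 0.870) and 0.535 RPKM in the Nedd4+/+ library (0.414 to 0.681). Hspa1b had 0.845 RPKM in the Nedd4-/- library (0.662 to 1.06) and 0.843 RPKM in the Nedd4+/+ library (0.684 to 1.03). Both were below the minimum of 1 RPKM for the comparison, and their intervals overlapped between libraries. Hspa1a and Hspa1b rested on 61.4 and 72.3 read pairs in the Nedd4-/- library and 66.0 and 98.2 in the Nedd4+/+ library, where Hsp90ab1 rested on 19407 in the Nedd4-/- library and 40105 in the Nedd4+/+ library. Summed, the pair stood at 0.959% of the level of Hspa8 in the Nedd4-/- library and 0.665% in the Nedd4+/+ library.

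How far a read can be assigned to a member differs among them. Of the windows of 1 read length in the Hspa1a transcript, 46.9% occur without mismatch in Hspa1b, and 49.7% of those of Hspa1b occur in Hspa1a. For Hspa8, 63.3% of windows occur in a transcript of at least 1 other gene of the GENCODE annotation, for Hsp90aa1 47.3%, for Hspd1 26.7% and for Hspe1 22.1%. For Hspd1 the gene that shares most is the pseudogene Hspd1-ps3. Hsp90ab1, Hsph1, Dnajb1 and Hsf1 shared 0 windows. The treatment of reads with several matches is not given in the sources used here, so the levels of Hspa8, Hspa1a, Hspa1b, Hsp90aa1, Hspd1 and Hspe1 are less certain than those of the other members.

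The comparison of genotypes found no member with a 2-fold difference. Hspa1a and Hspa1b were under the minimum, and of the other 8 members 0 passed 2-fold toward lower levels in Nedd4-/-, where 1.15% of the 9405 genes did, and 0 toward higher levels, where 0.138% did. Measured from the median of all genes the count was again 0 either way, where 0.223% of genes passed toward lower and 0.276% toward higher levels. The median log2 ratio of the 8 was -0.31, the same to 2 decimals as that of all genes. Without pseudocount the members' median was -0.32, against -0.39 for all genes. With 1 RPKM added and a minimum mean of 5 RPKM it was -0.32 over 7 members, against -0.38. The match thus held in the main setting and not in these others. With 1 RPKM added the 8 members ran from -0.60 for Hsp90ab1 to 0.08 for Hsph1. A log2 ratio above 0 was found for 1 of the 8, Hsph1, and for 7.32% of all genes.

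Hsp90ab1 was the member furthest below the rest. The Nedd4-/- level was 0.659 times the Nedd4+/+ level (log2 ratio -0.60), and 10.5% of all genes had a lower ratio with 1 RPKM added. On the scale without pseudocount it lay 0.21 below the median of all genes, with counting limits of -0.24 and -0.19. Its mean depth was 1556 reads per base in the Nedd4-/- library and 3215 in the Nedd4+/+ library, under the highest mean depth of any gene, 7463 in Nedd4-/- and 7454 in Nedd4+/+.

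Hsph1 and Hspe1 stood at the other end. Hsph1 was 1.06 times as high in the Nedd4-/- library as in the Nedd4+/+ library, and 95.8% of all genes had a lower ratio. Relative to the median of all genes, without pseudocount, it lay at 0.47 (0.36 to 0.58). Hspe1 was 0.960 times as high, which placed it at 0.33 (0.18 to 0.47) relative to that median, above 88.9% of genes. The counting intervals of the log2 ratio of Hsph1 (-0.03 to 0.19) and of Hspe1 (-0.20 to 0.08) include 0.

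The other members over the minimum lay close to the median of all genes. Relative to it, without pseudocount, Hspa8 was at 0.01 (-0.03 to 0.04), Dnajb1 at -0.03 (-0.17 to 0.10), Hsp90aa1 at 0.06 (0.0038 to 0.12), Hspd1 at 0.07 (-0.0046 to 0.15) and Hsf1 at 0.07 (-0.15 to 0.29). Of these, the interval of Hsp90aa1 lay just above the median and the others held it. On the RPKM + 1 scale 4 of the 8 members were under the overall median, and without a pseudocount 2 were, Hsp90ab1 and Dnajb1. The sides of Hspa8 and Hsp90aa1 thus depend on the pseudocount. Under the minimum, and without pseudocount, Hspa1a lay at 0.73 (0.20 to 1.25) and Hspa1b at 0.39 (-0.07 to 0.85) relative to the same median, which is of genes over the minimum.

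**Figure D3:**
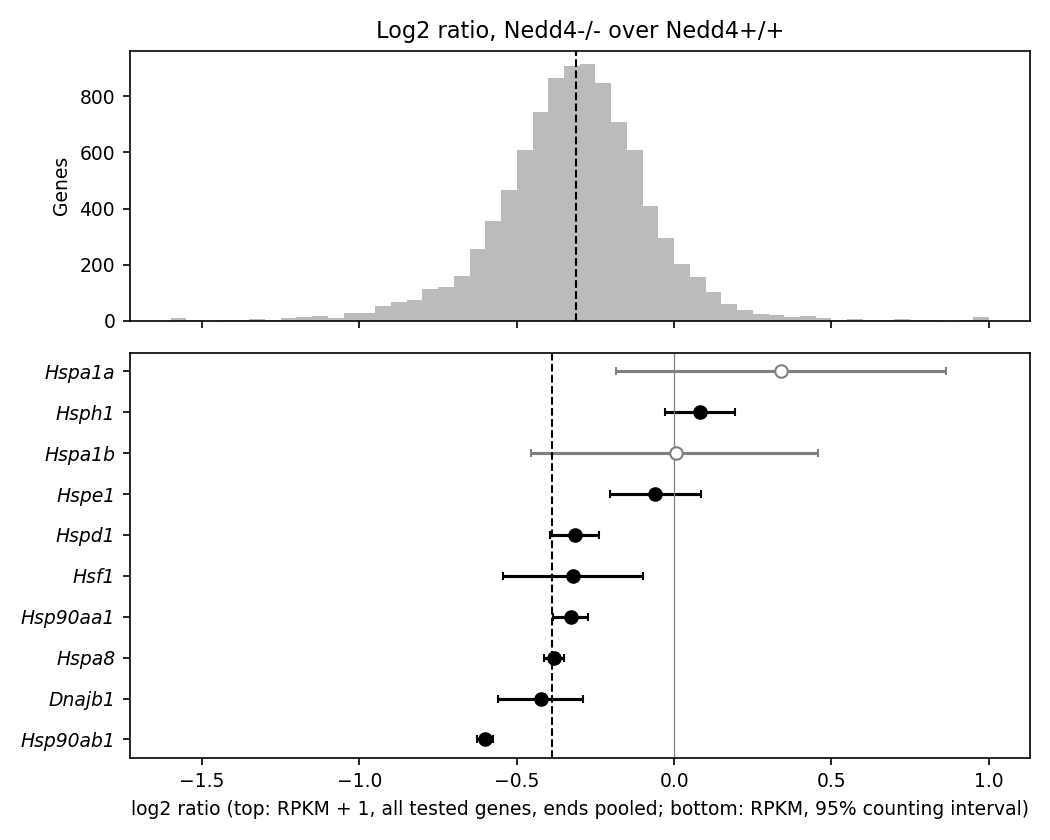
Log2 ratio of Nedd4-/- over Nedd4+/+ for all 9405 genes tested (top, RPKM + 1, values beyond the axis pooled in the end bars) and for the 10 members (bottom, RPKM, with 95% counting intervals); dashed lines are the median of all genes on each scale, and open points are members below 1 RPKM. Among the filled points Hsp90ab1 lies furthest left of the dashed line and Hspe1 and Hsph1 furthest right of it. The open point of Hspa1a also lies right of the line.

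Ratios between partner genes do not depend on how the libraries were scaled. The level of Hsp90aa1 was 16.3% of that of Hsp90ab1 in the Nedd4-/- library and 13.5% in the Nedd4+/+ library, 1.21 times as high (counting interval 1.16 to 1.26). Hspe1 was at 95.6% of Hspd1 in the Nedd4-/- library and 80.0% in the Nedd4+/+ library, 1.19 times as high (1.07 to 1.34). Hsph1 was at 6.32% of Hspa8 in the Nedd4-/- library and 4.58% in the Nedd4+/+ library, 1.38 times as high (1.27 to 1.497), and Hspa1a plus Hspa1b relative to Hspa8 were 1.44 times as high (1.14 to 1.84). Dnajb1 was at 4.83% of Hspa8 in the Nedd4-/- library and 4.97% in the Nedd4+/+ library, 0.972 times as high (0.882 to 1.07), an interval that includes 1. The ratios of Hsph1 and Dnajb1 to Hspa8 were chosen after their values were seen. Hspa1a and Hspa1b lie at low levels, where the median gene was higher in the Nedd4-/- library.

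The other chaperone genes tested also stayed within 2-fold, as nearly all genes did. Over 9 lists of cytosolic and mitochondrial chaperones, their cochaperones and regulators, 84 of 102 genes were tested and 0 passed the 2-fold rule in either direction. Of all 9405 genes, 1.15% passed toward lower and 0.138% toward higher levels in Nedd4-/-. The 84 chaperone genes ran from -0.80 to 0.15. Their median log2 ratio was -0.36, against -0.31 for all genes, and 55 of 84 were under the overall median, where 50% of genes are by construction; without pseudocount 44 of 84 were.

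The partners of HSP70 and HSP90 ranged from low to moderate levels. Among other HSP70 proteins, Hspa4, a nucleotide exchange factor related to Hsph1, stood at 29.2 RPKM in Nedd4-/- cells and 41.7 RPKM in Nedd4+/+ cells (log2 ratio -0.50), Hspa2, known from testis, at 0.926 RPKM in Nedd4-/- and 1.89 RPKM in Nedd4+/+ (-0.59), and Hspa14, a ribosome-associated HSP70, at 21.9 RPKM in Nedd4-/- and 28.3 RPKM in Nedd4+/+ (-0.36). Of 15 tested HSP40 genes 10 lay below the median of all genes. The log2 ratios of the 15 ran from -0.75 for Dnajc2 to 0.0036 for Dnajb14. Dnajc2, a ribosome-associated member, stood at 8.75 RPKM in Nedd4-/- and 15.4 RPKM in Nedd4+/+. Between these ratios lay Dnajb12 of the endoplasmic reticulum membrane at 4.74 RPKM in Nedd4-/- and 7.91 RPKM in Nedd4+/+ (-0.63). Dnajc8, a splicing-related protein, stood at 10.3 RPKM in Nedd4-/- and 15.5 RPKM in Nedd4+/+ (-0.55). Dnajc9, a histone chaperone, stood at 24.3 RPKM in Nedd4-/- and 32.8 RPKM in Nedd4+/+ (-0.42). Of 8 tested HSP70 cochaperones 5 lay below the median of all genes. Bag1, a nucleotide exchange factor, stood at 17.9 RPKM in Nedd4-/- and 26.3 RPKM in Nedd4+/+ (-0.53). Hspbp1, another exchange factor, stood at 5.63 RPKM in Nedd4-/- and 8.51 RPKM in Nedd4+/+ (-0.52). Bag5 stood at 4.11 RPKM in Nedd4-/- and 5.68 RPKM in Nedd4+/+ (-0.39). St13, the HSP70-interacting protein, stood at 29.1 RPKM in Nedd4-/- and 37.9 RPKM in Nedd4+/+ (-0.37). Bag2 had the highest log2 ratio of that list, 0.15.

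HSP90 cochaperones lay evenly around the median, with 9 of 18 below it. Nudc, a cochaperone that also serves the dynein motor, was the lowest at 8.42 RPKM in the Nedd4-/- library and 15.4 RPKM in the Nedd4+/+ library (-0.80), followed by Fkbp4, an immunophilin of steroid receptor complexes, at 34.7 RPKM in Nedd4-/- and 52.7 RPKM in Nedd4+/+ (-0.59). Rpap3, a subunit of the R2TP complex, stood at 4.03 RPKM in Nedd4-/- and 6.23 RPKM in Nedd4+/+ (-0.52). Ahsa1, the activator of the HSP90 ATPase, stood at 44.9 RPKM in Nedd4-/- and 50.1 RPKM in Nedd4+/+ (-0.15). The cytosolic chaperonin CCT and the prefoldin that hands it actin and tubulin had 14 tested genes, 10 below the median with 1 RPKM added. With 0.1 RPKM added their median log2 ratio was -0.40, against -0.38 for all genes. With a minimum mean of 5 RPKM both medians were -0.38. Tcp1 stood at 107 RPKM in Nedd4-/- and 140 RPKM in Nedd4+/+ (-0.38) and Cct5 at 88.8 RPKM in Nedd4-/- and 126 RPKM in Nedd4+/+ (-0.49). Cct7 stood at 44.0 RPKM in Nedd4-/- and 63.8 RPKM in Nedd4+/+ (-0.53) and Cct8 at 45.3 RPKM in Nedd4-/- and 64.7 RPKM in Nedd4+/+ (-0.50).

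Most mitochondrial chaperones and proteases lay below the median of all genes, but not with a higher minimum level. Of 15 compared, 13 lay below it, against 10 without pseudocount, and the median log2 ratio was -0.38. Measured from the median of all genes the list median was -0.069, and -0.088 without pseudocount. Hspa9, the mitochondrial HSP70, stood at 46.5 RPKM in Nedd4-/- cells and 70.6 RPKM in Nedd4+/+ cells (-0.59), Lonp1, a matrix protease, at 8.61 RPKM in Nedd4-/- and 15.0 RPKM in Nedd4+/+ (-0.74), and Afg3l2, an inner membrane protease, at 4.21 RPKM in Nedd4-/- and 6.91 RPKM in Nedd4+/+ (-0.60). With a minimum mean of 5 RPKM, 6 of 13 lay below, and the list median was 0.011 above that of all genes.

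Regulators and other heat-inducible genes gave no common direction. Hsf2, a second heat shock factor, stood at 2.66 RPKM in Nedd4-/- cells and 3.31 RPKM in Nedd4+/+ cells (-0.24) and Hsbp1, an HSF1-binding protein, at 8.99 RPKM in Nedd4-/- and 11.9 RPKM in Nedd4+/+ (-0.37). Of 8 tested heat-inducible genes outside the chaperone families 4 lay below the median, with the polyubiquitin gene Ubb at 70.7 RPKM in Nedd4-/- and 116 RPKM in Nedd4+/+ (-0.71) and with Dedd2, a death effector domain gene, at 2.56 RPKM in Nedd4-/- and 4.05 RPKM in Nedd4+/+ (-0.50). The 8 small heat shock protein genes were all under 1 RPKM in both libraries, with Hspb6 at 0.481 RPKM in the Nedd4-/- library and 0.873 RPKM in the Nedd4+/+ library and Hspb9 at 0.772 RPKM in Nedd4-/- and 0.464 RPKM in Nedd4+/+.

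The chaperones of the endoplasmic reticulum had lower ratios than these lists. Their median log2 ratio was -0.88. Of 18, 18 lay under the overall median, 17 without pseudocount, and 5 passed 2-fold toward lower levels in Nedd4-/-, where 1.15% of all genes did. Measured from the median of all genes 0 of 18 passed, where 0.223% of genes did, and the lowest, Pdia4, lay at -0.87. Plasmablast markers were lower by a similar amount, with a median log2 ratio of -0.82, and their part in this list's values was not tested. Of these markers 6 of 6 were lower in the Nedd4-/- library, where 7.32% of all genes had a log2 ratio above 0. Hsp90b1, the HSP90 of the endoplasmic reticulum, stood at 238 RPKM in Nedd4-/- cells and 504 RPKM in Nedd4+/+ cells (-1.08), where its cytosolic relative Hsp90ab1 had -0.60 and Hsp90aa1 -0.32. Hyou1, the HSP110 of that compartment, was at 38.9 RPKM in Nedd4-/- and 84.7 RPKM in Nedd4+/+ (-1.10), where the cytosolic Hsph1 had 0.08. Pdia4, a disulfide isomerase, was at 112 RPKM in Nedd4-/- and 255 RPKM in Nedd4+/+ (-1.18). No test of the difference between the lists was possible with 1 library per group.

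**Figure D4:**
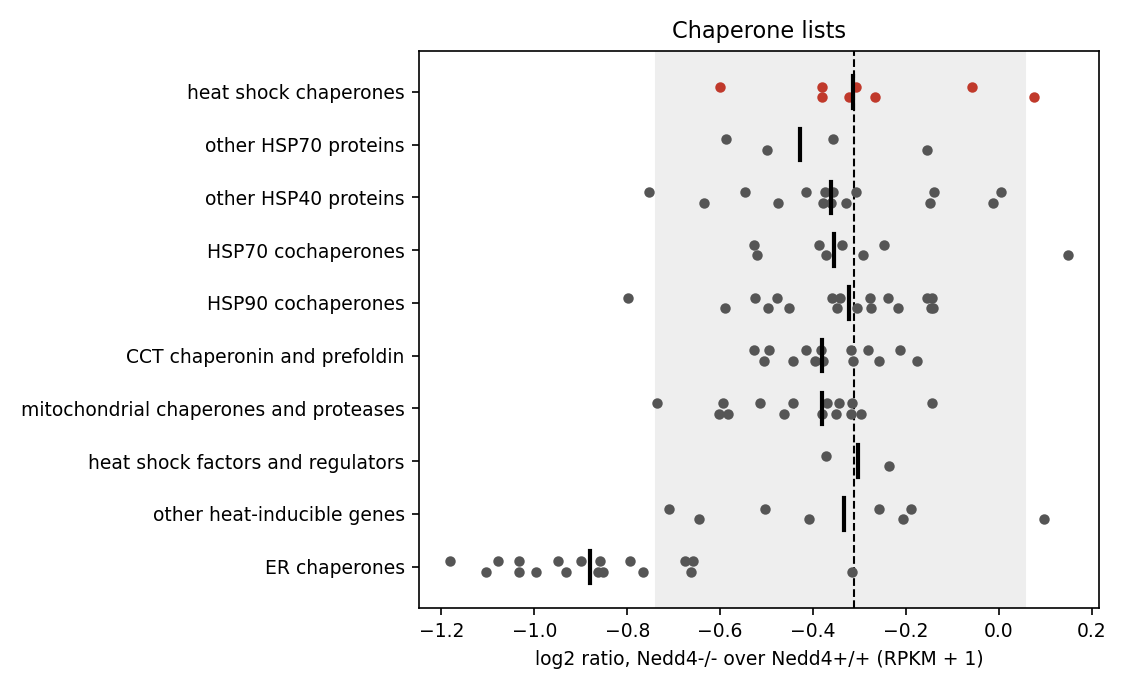
Log2 ratio of Nedd4-/- over Nedd4+/+ (RPKM + 1) for each tested gene of the heat shock chaperones (red) and of 9 other lists; thick bars are list medians, the dashed line is the median of all genes and the grey band their central 90%. The endoplasmic reticulum chaperones lie left of the cytosolic and mitochondrial lists, with 1 gene near the dashed line.

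The promoter match was set beside the levels. Promoter windows were at hand for 6 of the 10 members and 85 of the 102 other chaperone genes. Among these, 5 genes had an exact 3-unit element: Hspd1, Hspe1, Hsph1, Chordc1, an HSP90 cochaperone, and Dnajb6, an HSP40. Hspd1 and Hspe1 share their match, so the 5 genes are not independent. Their log2 ratios lay between -0.31 and 0.08, with a median of -0.14, and 5 of 5 lay above the median of all genes with 1 RPKM added, Hspd1 by 0.0055. Over all 44 tested genes with the element the median was -0.27, and 27 of them lay above the median of all genes. Over 6709 tested genes with a promoter window and no such element the median was -0.32, and 3273 lay above the median of all genes.

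The second deposited measure was the kb upstream of each gene, which the choice of members did not use. The minimum mean was 0.2 RPKM, which 11837 windows reached. Their median log2 ratio, with 0.1 RPKM added, was 0.41, toward higher levels in Nedd4-/- cells. Of 9 member windows over the minimum 2 passed 2-fold toward higher levels in Nedd4-/-, where 19.8% of all windows did, and 0 toward lower levels, where 0.794% did. They were Hspa1a and Hsp90ab1. Measured from the median of all windows 1 did, Hspa1a, where 6.5% of all windows did. With 0.5 RPKM added 1 did as well, Hspa1a, where 0.321% of all windows did, and Hsp90ab1 had a log2 ratio of 0.75. A log2 ratio above 0 was found for 6 of the 9 member windows over the minimum and for 71.2% of all windows. The Hspa1b window, under the minimum, was also higher in the Nedd4-/- library.

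The 3 lower windows, of Hspd1, Hspe1 and Hsf1, were also the 3 with the highest levels. The window of Hspd1 held 2.97 RPKM in the Nedd4-/- library and 3.36 RPKM in the Nedd4+/+ library, that of Hspe1 2.09 RPKM in Nedd4-/- and 3.07 RPKM in Nedd4+/+, and that of Hsf1 1.61 RPKM in Nedd4-/- and 2.19 RPKM in Nedd4+/+. In the GRCm38 annotation each of these windows holds part of a neighbouring coding gene, for Hspd1 and Hspe1 each other and for Hsf1 the ribosome biogenesis gene Bop1, which stood at 13.4 RPKM in Nedd4-/- cells and 18.4 RPKM in Nedd4+/+ cells. Reads of the neighbour and of the upstream region cannot be told apart there. The counting intervals of the ratio ran from 0.496 to 0.926 for Hspe1 and included 1 for Hspd1 (0.670 to 1.16) and Hsf1 (0.508 to 1.05).

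Of the member windows, that of Hspa1a differed most between libraries. Its window held 0.758 RPKM in the Nedd4-/- library and 0.120 RPKM in the Nedd4+/+ library, from 23.1 read pairs in the Nedd4-/- library and 4.98 in the Nedd4+/+ library. The log2 ratio was 1.97 and exceeded 99.4% of windows. Without pseudocount the fold was 6.34 (counting interval 2.35 to 21.4). In the Nedd4-/- library the counting intervals of the window (0.481 to 1.14 RPKM) and of the gene itself (0.519 to 0.870 RPKM) overlapped. In the Nedd4+/+ library the window (0.0387 to 0.280 RPKM) lay under the gene (0.414 to 0.681 RPKM). The window holds part of Hspa1l, a relative of Hspa1a, which stood at 0.340 RPKM in Nedd4-/- cells and 0.311 RPKM in Nedd4+/+ cells. Reads of Hspa1l and of the upstream region cannot be told apart there. The kb upstream of Hspa1l held 1.07 RPKM in Nedd4-/- and 0.286 RPKM in Nedd4+/+. It may share bases and reads with the Hspa1a window, so it is not a separate observation. The window of the copy Hspa1b held 0.246 RPKM in Nedd4-/- and 0.145 RPKM in Nedd4+/+ and was under the minimum, with a fold of 1.69 (0.502 to 5.97).

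For Hsp90ab1, Hspa8, Hsp90aa1 and Dnajb1 the window was higher and the gene lower in the Nedd4-/- library. Most windows and genes went these ways: a log2 ratio above 0 was found for 71.2% of all windows and 7.32% of all genes. The share of genes with both was not counted. The Hsp90ab1 window held 0.742 RPKM in the Nedd4-/- library and 0.236 RPKM in the Nedd4+/+ library, a fold of 3.14 (1.43 to 7.46). In the GRCm38 annotation this window holds part of the long noncoding gene Gm35399, and that of Dnajb1 part of the long noncoding gene Gm42029. The windows of Hspa8 (Nedd4-/- 0.935, Nedd4+/+ 0.502 RPKM), Dnajb1 (Nedd4-/- 0.963, Nedd4+/+ 0.492 RPKM), Hsph1 (Nedd4-/- 0.503, Nedd4+/+ 0.209 RPKM) and Hsp90aa1 (Nedd4-/- 0.501, Nedd4+/+ 0.365 RPKM) were higher in the Nedd4-/- library as well, by 1.86-fold, 1.96-fold, 2.41-fold and 1.37-fold, and the counting intervals of Hsph1 and Hsp90aa1 included 1. Over all windows the median level was 0.267 RPKM in the Nedd4-/- library and 0.134 RPKM in the Nedd4+/+ library.

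**Figure D5:**
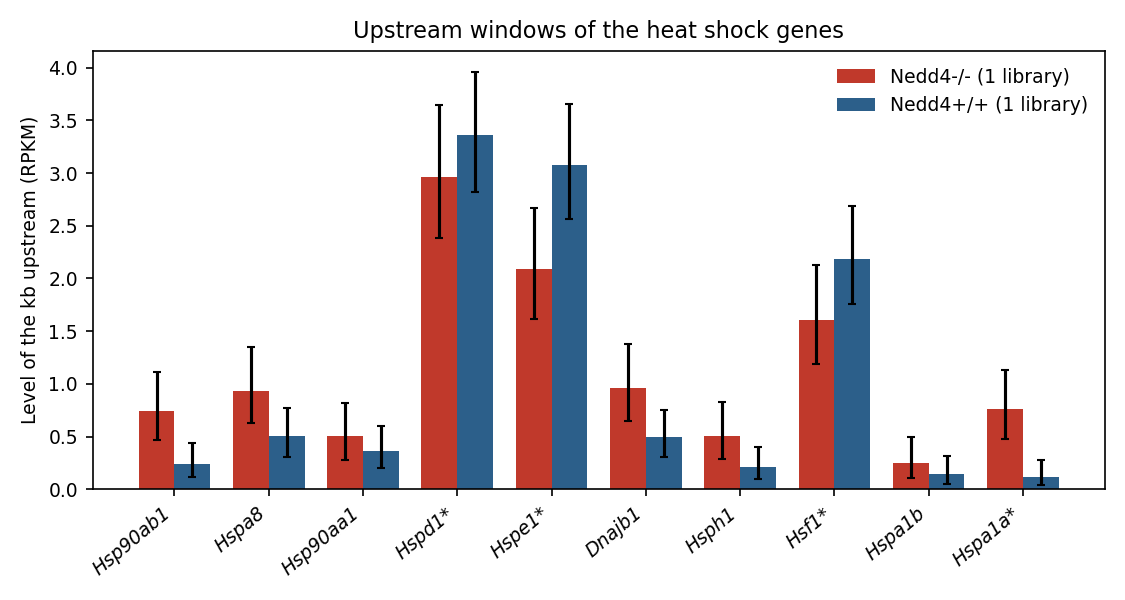
Level of the kb upstream of each member in RPKM in the Nedd4-/- and Nedd4+/+ library, with exact 95% counting intervals; asterisks mark windows that hold part of a neighbouring coding gene. The windows of Hspd1, Hspe1 and Hsf1 are the highest and are lower in the Nedd4-/- library, and the other 7 are higher in it.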

How the data were processed

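Per the labels' protocols, total RNA was freed of ribosomal RNA with a Ribo-Zero kit, and each genotype gave 1 library. The submitters' processing notes name TopHat, Cufflinks and mm9; versions, strand and treatment of multiple matches are not given. The authors deposited gene levels in RPKM, per the file headers. The deposited upstream column is a ratio, the level of the kb upstream divided by the gene's RPKM plus 0.0001: the product gave whole numbers of read bases, within 0.05 bases, for 100% of 21943 Nedd4-/- windows under 2 RPKM and 99.99% of 21078 Nedd4+/+ windows. A level had been planned for, so the product was used. It takes the commonest low level as 1 read pair, and the read length is the one at which windows came out whole.

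The same steps gave the depth. Read pairs are recovered bases over 2 reads of 101 nt, with GENCODE M21 transcript lengths (build GRCm38), and need not be whole. Level intervals are exact Poisson, fold intervals exact Clopper-Pearson, and intervals of ratios between genes exact conditional, all at 95%; they cover counting error only: without molecular identifiers, reads may repeat a molecule. Pseudocounts were 1 RPKM (genes) and 0.1 RPKM (windows), and the call was a 2-fold difference. Fold calls and intervals were tested on simulated counts with Poisson error only, which cannot show the spread between replicates. Python 3.11.15, pandas 2.3.3 and scipy 1.17.1 were used. Coordinates are of GRCm38 only and promoters are from RefSeq.

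Members and lists were chosen with earlier results of these data known. Named are all members and, of each other list, the gene with the highest mean and up to 3 tested genes with the largest absolute log2 ratio, of which 1 gene is not reported here; Bag2, Dnajb14, Hspb9, Chordc1, Dnajb6, Bop1 and Hspa1l were named after their values were seen.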

Additional observations from a re-analysis of the deposited data

How the results depend on the processing

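Counts over all genes depended on the scale. With a pseudocount of 0.1 RPKM 229 genes were at least 2-fold lower and 25 higher. Minus the median or the trimmed mean of all genes, 21 were lower and 26 higher, against 108 lower and 13 higher without centring. With a minimum mean of 5 RPKM 7 were higher. The count of members past 2-fold stayed at 0 in each of these settings and without a minimum level.

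Minus the median of all genes, the median log2 ratio was -0.0019 for the members, -0.12 for other HSP70 proteins, -0.048 for other HSP40 proteins, -0.043 for HSP70 cochaperones, -0.011 for HSP90 cochaperones, -0.067 for CCT and prefoldin, -0.069 for mitochondrial chaperones and proteases, 0.0088 for heat shock factors and regulators, -0.020 for other heat-inducible genes and -0.57 for the chaperones of the endoplasmic reticulum. Minus the trimmed mean these were -0.0017, -0.12, -0.048, -0.042, -0.011, -0.067, -0.068, 0.0089, -0.020 and -0.57. Leaving out Hspa1a and Hspa1b left the member median at -0.31, since neither reached the minimum.

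In settings chosen after seeing the data, 2 members lay below the median of all genes without pseudocount, and with a minimum mean of 5 RPKM 29 of 65 other chaperone genes and 6 of 13 mitochondrial ones did.

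Of the upstream windows, 38 were at least 2-fold higher and 20 lower with a pseudocount of 0.5 RPKM, 769 and 672 minus the median of all windows, and 10 and 38 where the minimum mean was 1 RPKM. Member windows past 2-fold were 1, 1 and 0 in the same settings. The windows of Hspa1a and Hsp90ab1 fell under the minimum mean of 1 RPKM, so the 0 was fixed by that minimum. The 2-unit element was found in 5 of the 6 member genes searched and in 17.0% of all 27025 genes with windows. In Hspd1, Hspe1 and Hsph1 the longer exact element already contains such a form. No paired analysis was possible because there was 1 library per group. Depth limits Hspa1a, Hspa1b and the upstream windows, which rest on few read pairs.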
